A study of Mus musculus with 4 samples.

Results

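Genes that mark haematopoietic stem and progenitor cells were followed in *in vitro* MDSCs, the immature myeloid cells obtained when BM cells are cultured with GM-CSF. The 9 genes were taken by name: the receptors *Kit* and *Flt3*, the surface protein gene *Cd34*, and the transcription factor genes *Myb*, *Sox4*, *Hoxa9*, *Meis1*, *Erg* and *Lmo2*. All 9 had a row among the 24346 genes of each expression table, and all 9 passed the filter on low values that left 11958 genes for testing. BM cells of female C57BL/6J mice, 6 to 8 weeks of age, were cultured for 4 days with 40 ng/ml GM-CSF in both groups, and 5 ng/ml G-CSF was added in the G-CSF group only. There were 2 libraries without G-CSF (Control) and 2 with it (G-CSF), which the study calls biological replicates. Whether each came from a separate mouse is not given in the sources used here, so that p-values measure the spread between these libraries. The cultures were sequenced whole, without sorting, and in such bulk RNA fewer cells of a type and less RNA per cell cannot be told apart. Expression is given as FPKM, fragment counts scaled to transcript length and to sequencing depth.

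Blood cells arise from multipotent stem cells that lose self-renewal in steps and then commit to single lineages. KIT, the receptor for stem cell factor, and FLT3, the receptor for FLT3 ligand, are tyrosine kinases through which early progenitors receive survival and growth signals. Both are shut off in most maturing myeloid cells, but mast cells keep KIT and dendritic cells keep FLT3. MYB, HOXA9, MEIS1, ERG and LMO2 are DNA-binding or bridging proteins of the progenitor gene programme, and their levels normally fall as granulocytes and monocytes mature.

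The libraries held an estimated 12.45 to 15.6 M mapped reads, and 14674 to 14890 genes stood above 0. Of 10 myeloid marker genes, 9 were analysed and all 9 were expressed, with *S100a8* between 25565 and 35613 FPKM and *Itgam* (CD11b) between 395 and 520 FPKM. *Ly6g* was not analysed here. GEO's extract protocol speaks of liver tissue, which is not the source that the study's methods give. All 7 hepatocyte genes examined, *Alb* among them, were listed at 0 in every library.

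The progenitor genes did not move as a group. With G-CSF, *Myb* rose 2.47-fold and *Lmo2* rose 1.24-fold, *Kit* fell, standing 1.63-fold higher in Control, and the other 6 genes did not pass an adjusted p of 0.05. Thus 3 of 9 genes passed the test, against 24.1% of all genes tested (12.6% higher and 11.5% lower with G-CSF), and the share is no result about these 9 genes. Only *Myb* also exceeded a fold change of 2, the second threshold of the study, which 1.44% of all genes tested met together with the adjusted p (0.535% higher and 0.903% lower). The median log2 fold change of the 9 genes was -0.17, with 4 above and 5 below 0, beside a median of 0.001 over all genes tested, of which 50.2% lay above 0. In 7 of the 9 genes the G-CSF values did not overlap the Control values, 4 higher and 3 lower, as was the case for 66.3% of all genes tested (33.7% higher and 32.6% lower).

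**Figure D1:**
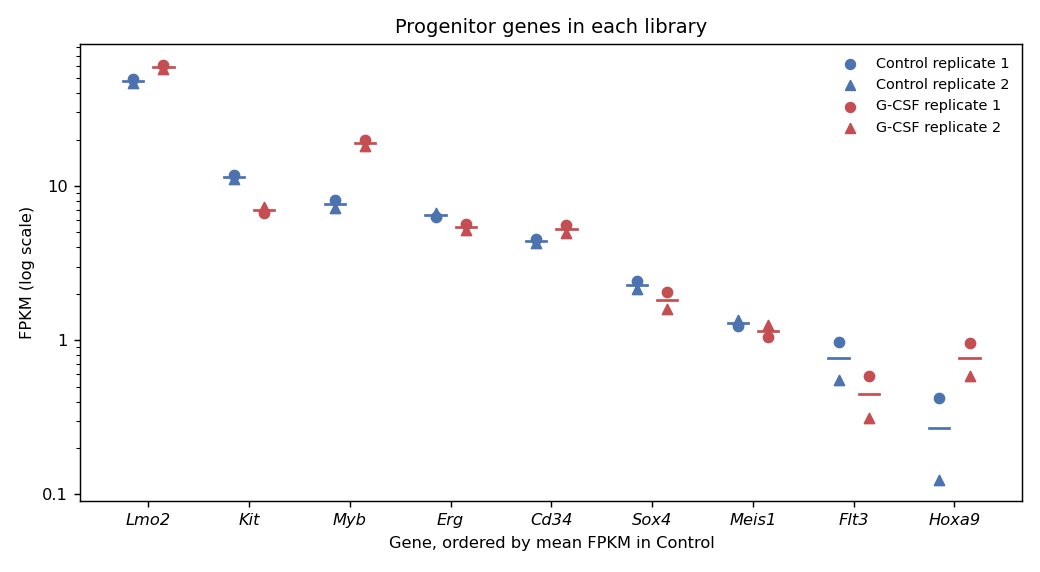
FPKM of the 9 progenitor genes (log scale) in each of the 4 libraries, ordered by their mean in Control, with a short line at the mean of the 2 libraries of a group. *Myb* passes *Kit* in the G-CSF libraries, at 18.1 and 19.9 FPKM against 6.67 and 7.36, while the other genes keep nearly the same order.

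*Lmo2* was the highest of the genes in both groups, at a mean of 47.9 FPKM in Control and 59.3 FPKM in G-CSF. FPKM is scaled to transcript length, so that these levels can be compared between genes. In Control, *Kit*, *Myb*, *Erg*, *Cd34*, *Sox4*, *Meis1*, *Flt3* and *Hoxa9* followed in that order, from 11.5 down to 0.272 FPKM, and no neighbours in the order had overlapping values. With G-CSF, *Myb* took the place above *Kit*, and *Hoxa9* the place above *Flt3*. The values of *Hoxa9* and *Flt3* nearly met, at 0.584 FPKM for the lower of *Hoxa9* and 0.582 FPKM for the higher of *Flt3*. *Erg* and *Cd34* could then not be ordered, since their values overlapped (5.16 and 5.68 FPKM for *Erg*, 4.94 and 5.61 FPKM for *Cd34*). The ratio of *Myb* to *Kit* FPKM was 0.685 and 0.646 in the Control libraries and 2.98 and 2.46 in the G-CSF libraries.

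*Myb* encodes a transcription factor that keeps progenitors dividing and immature. It is a protein-coding gene of up to 16 exons on the minus strand of chromosome 10 of GRCm38, from 21124935 to 21160984. The stretch just before its start is shown because *Myb* changed most clearly of the 9 genes. The bases are from RefSeq (GRCm38.p6), 5′ to 3′ on the strand of the gene, with each CG in capitals. The window of *Kit*, which moved the opposite way, is set beside it and ends where its first annotated exon begins.
Myb, chr10:21160985-21161234, minus strand: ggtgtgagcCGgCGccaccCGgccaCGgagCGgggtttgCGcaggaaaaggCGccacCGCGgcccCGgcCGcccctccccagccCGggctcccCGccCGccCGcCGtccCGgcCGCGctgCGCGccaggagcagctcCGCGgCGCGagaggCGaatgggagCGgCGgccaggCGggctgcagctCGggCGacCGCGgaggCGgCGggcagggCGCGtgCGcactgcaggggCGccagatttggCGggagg
Kit, chr5:75574737-75574915, plus strand: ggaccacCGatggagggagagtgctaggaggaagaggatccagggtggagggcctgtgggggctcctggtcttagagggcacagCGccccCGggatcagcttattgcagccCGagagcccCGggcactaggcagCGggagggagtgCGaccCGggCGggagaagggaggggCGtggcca
The *Myb* window has 81.2% G and C and 40 CG in 250 bases, and the matching 250 bases before the *Kit* start in RefSeq have 70.8% and 17 CG. The medians over 32536 such windows are 52.4% and 6. The window of *Myb* thus has more CG than most promoters in the table, at the 98.9th percentile, and that of *Kit* is at the 78.2nd. Neither holds any of 6 motifs searched on both strands: CCGGAAG of ETS factors such as ERG, TGTGGT of RUNX, AGATAA of GATA factors, TAACNG of MYB, TGACAG of MEIS and TTCNNNGAA of STAT factors. Windows were found for 8 of the 9 genes (*Lmo2* had none in the table). The MYB motif occurred in those of *Cd34* and *Meis1*, in 1 of the windows of *Erg*, and in 19.9% of all windows. The ETS and RUNX motifs occurred in that of *Meis1* (6.95% and 14.0% of all windows), the GATA and MEIS motifs in 1 of the windows of *Erg* (9.97% and 15.8%), and the STAT motif in none of the 8 (7.04%). A match describes letters in a window, not binding.

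*Myb* stood at 8.13 and 7.16 FPKM in the Control libraries and at 19.9 and 18.1 FPKM with G-CSF. Both G-CSF libraries held more than 2 times the level of either Control library, and replicates differed little. The mean rose from 7.64 ± 0.683 to 18.99 ± 1.29 FPKM (SD, n = 2 each), on 324 to 895 estimated reads per library. On the log2 scale this was a change of 1.30 (standard error, SE, 0.0920; adjusted p = 0.00139, limma with Benjamini-Hochberg adjustment). It was the 39th highest among the 11958 genes tested. Among all genes tested, *Myb* lay at the 38.7th percentile of mean FPKM without and the 62.7th under G-CSF. It passed the test under all 13 alternative settings, with a log2 fold change between 1.21 and 1.39. On the other strand *Gm26577* overlaps *Myb*, as *Gm16897* does *Cd34*, *Gm26735* *Sox4* and *Gm16140* *Meis1*. The libraries were stranded, but whether the counting used the strand is not given in the sources used here.

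**Figure D2:**
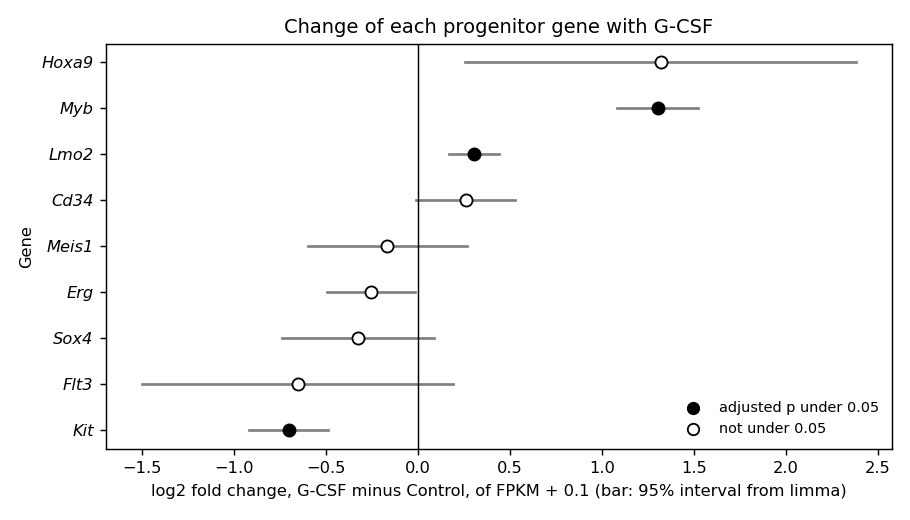
log2 fold change (G-CSF minus Control) of FPKM + 0.1 for the 9 progenitor genes, with the 95% interval from limma as a bar and filled points for an adjusted p under 0.05. *Myb* and *Lmo2* lie above 0 and *Kit* below it with narrow intervals, whereas the intervals of the low genes *Hoxa9* and *Flt3* are wide.

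*Kit*, on the plus strand of chromosome 5 from 75574916 to 75656722, moved the other way. It stood at 11.9 and 11.1 FPKM in the Control libraries and at 6.67 and 7.36 FPKM with G-CSF, and each G-CSF value was below both Control values. Mean FPKM were 11.5 ± 0.541 without and 7.02 ± 0.484 under G-CSF (SD, n = 2 per group), on 417 to 797 estimated reads. This is -0.70 on the log2 scale (SE 0.0889, adjusted p = 0.00521). Leaving out each library in turn gave values from -0.77 to -0.63. The call was lost in 1 alternative, limma without a trend of variance on expression (adjusted p = 0.0512). The ligand of KIT was all but absent: *Kitl* (stem cell factor) rested on 1 to 3 estimated reads per library and was not tested.

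*Flt3* lies on the minus strand of the same chromosome, from 147330741 to 147400489, and was low. It stood at 0.973 and 0.552 FPKM in the Control libraries and at 0.582 and 0.315 FPKM with G-CSF. The groups overlapped, since Control replicate 2 was below G-CSF replicate 1, and each library held only 17 to 45 estimated reads. Its difference of -0.65 on the log2 scale missed the threshold (SE 0.353, adjusted p = 0.22), with a 95% interval from -1.50 to 0.19. The size of any change in *Flt3* was not resolved in these libraries. Its ligand gene *Flt3l* was expressed at 4.23 to 6.33 FPKM over the 4 libraries (log2 fold change 0.22, SE 0.17, adjusted p = 0.377).

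*Cd34* encodes a sialomucin on the surface of stem and progenitor cells and of some mast and endothelial cells. It lies on chromosome 1 (plus strand, 194938819 to 194961279). It stood at 4.53 and 4.24 FPKM in the Control libraries and at 5.61 and 4.94 FPKM with G-CSF. The groups did not overlap, G-CSF being higher, but a difference of 0.26 on the log2 scale missed the threshold (SE 0.112, adjusted p = 0.139). The 95% interval, from -0.01 to 0.53, includes the size of the change in *Lmo2*.

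*Lmo2* encodes a LIM-domain bridging protein that joins TAL1 or LYL1, LDB1 and GATA factors in 1 complex on DNA. It lies on chromosome 2 (plus strand, 103957986 to 103981878). It stood at 49.4 and 46.5 FPKM in the Control libraries and at 61.2 and 57.4 FPKM with G-CSF. The G-CSF values lay above both Control values by more than the replicates differed. Mean FPKM were 47.9 ± 2.07 and 59.3 ± 2.68 (SD, n = 2 per group), on 956 to 1293 estimated reads. Its log2 fold change was small (0.31, SE 0.0563, adjusted p = 0.0135). It just missed the threshold without G-CSF replicate 1 (adjusted p = 0.0505) and without the variance trend (adjusted p = 0.078). Its partner *Lyl1* rose as well, from 37.2 and 31.0 FPKM in Control to 50.4 and 44.4 FPKM with G-CSF (log2 fold change 0.48, SE 0.0994, adjusted p = 0.0194). *Tal1* (0.31, adjusted p = 0.0812) and *Ldb1* (0.07, adjusted p = 0.306) did not pass the test.

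*Erg* and *Sox4* were the other transcription factor genes at intermediate levels. *Erg*, an ETS factor gene on chromosome 16 (minus strand, 95359169 to 95586593), stood at 6.31 and 6.67 FPKM in the Control libraries and at 5.68 and 5.16 FPKM with G-CSF. The G-CSF values were lower without overlap. A difference of -0.26 on the log2 scale missed the threshold (SE 0.0997, adjusted p = 0.109). The related ETS gene *Fli1* was at 24.0 to 26.5 FPKM (log2 fold change 0.10, adjusted p = 0.241). *Sox4*, a single-exon gene on chromosome 13 (minus strand, 28948919 to 28953713) that encodes a factor of early progenitors, stood at 2.42 and 2.16 FPKM in the Control libraries and at 2.05 and 1.59 FPKM with G-CSF. Its G-CSF values were also below both Control values, and the difference of -0.33 on the log2 scale missed the threshold (SE 0.173, adjusted p = 0.213).

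*Hoxa9* and *Meis1* encode homeodomain proteins that bind DNA together and sustain self-renewal. They were the lowest transcription factor genes of the 9. *Hoxa9*, on chromosome 6 (minus strand, 52223100 to 52231089), stood at 0.419 and 0.124 FPKM in the Control libraries and at 0.958 and 0.584 FPKM with G-CSF. Both G-CSF values exceeded both Control values, and replicates were far apart in each group. Estimated reads numbered only 17 and 5 (Control) and 36 and 27 (G-CSF), so that Control replicate 2 was under the 10 reads that the filter asks of any 2 libraries. The log2 fold change of 1.32 was as large as that of *Myb* but had a SE of 0.443 and did not pass (adjusted p = 0.0735, 95% interval from 0.26 to 2.38). It did pass in 3 of 12 alternatives, among them without Control replicate 1 (1.93, adjusted p = 0.0228) and with voom (1.65, adjusted p = 0.0376). With each library left out in turn it ranged from 0.71 to 1.93, and a pseudocount of 1 FPKM gave 0.48.

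*Meis1*, on chromosome 11 (minus strand, 18879817 to 19018985), stood at 1.25 and 1.35 FPKM in the Control libraries and at 1.04 and 1.26 FPKM with G-CSF. The groups overlapped and no change was detected (log2 fold change -0.17, SE 0.181, adjusted p = 0.536). Its 95% interval of -0.60 to 0.27 does not reach the rise seen for *Myb*. Of the 75-base windows of its transcripts, 8.66% also occur in the overlapping *Gm37818*. For *Hoxa9* this share is 0.198%, and for the other 7 genes it is 0.

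Further genes linked to progenitors or to KIT and FLT3 signalling were followed as 4 lists. Not all of them are particular to progenitors, *Cd33* of myeloid cells being an example. Beside the counts of each list, 24.1% of all genes tested passed (12.6% higher and 11.5% lower with G-CSF). Of 16 surface genes of stem and progenitor cells, 12 were tested, 2 rose and 4 fell (median log2 fold change -0.24), and 1 passed without the variance trend. *Thy1*, which encodes a small glycoprotein of the cell surface, rose from 45.4 and 43.6 to 74.0 and 77.7 FPKM (log2 fold change 0.77, SE 0.0501, adjusted p = 0.00107). *Cd33*, a gene for a sialic acid-binding lectin of myeloid cells, fell by 0.61 on the log2 scale (SE 0.0436, adjusted p = 0.0014). *Cd93* (-0.39, adjusted p = 0.0116) and the tetraspanin gene *Cd9* (-0.36, adjusted p = 0.0124) fell too. The stem cell genes *Tek* and *Esam* were each at most 0.341 FPKM in every library and were not tested.

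Among 20 stem and progenitor cell transcription factors, 16 were tested, 2 rose and 14 did not pass (median 0.10). The count was 5 with voom, 1 without a filter on low values and 0 in limma without the variance trend, where 7 had an unadjusted p under 0.05. *Gfi1*, a repressor that directs progenitors to granulocytes, rose from 8.32 and 7.85 to 15.2 and 12.4 FPKM (log2 fold change 0.76, SE 0.109, adjusted p = 0.007). *Lyl1* was the other gene that rose. *Gata2*, a factor of stem cells, mast cells and basophils, had a log2 fold change of -0.53 that did not pass (SE 0.162, adjusted p = 0.0561).

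In the list of HOX genes, their MEIS and PBX partners and the KMT2A complex, 11 of 23 genes were tested and 1 passed, as lower (median 0.01). No gene of the list passed without Control replicate 2 or without G-CSF replicate 2 (limma, with 1 and 3 genes at an unadjusted p under 0.05), or without the variance trend (2 genes). *Psip1* (0.28, adjusted p = 0.0644), *Men1* (0.16, adjusted p = 0.0617) and *Pknox1* (0.17, adjusted p = 0.285) did not pass. *Hoxa10*, the neighbour of *Hoxa9*, had at most 1 estimated read per library and was not tested.

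Of 20 ligand and signalling genes of KIT and FLT3, 19 were tested, 1 rose and 5 fell (median -0.12). *Sh2b3*, which encodes the adaptor LNK that restrains cytokine receptor signals, fell from 30.8 and 30.04 to 23.9 and 24.8 FPKM (log2 fold change -0.32, SE 0.0542, adjusted p = 0.0107). *Dok1* (-0.27, adjusted p = 0.0258) and the kinase subunit gene *Pik3cd* (-0.22, adjusted p = 0.0323) fell as well, and *Sla2* rose by 0.23 (adjusted p = 0.0241). These are small differences, and with any 1 library left out only 1 to 3 genes of the list passed (1 without Control replicate 1 and 1 without G-CSF replicate 1). The count was 2 without a filter on low values and 0 in limma without the variance trend, where 7 had an unadjusted p under 0.05.

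**Figure D3:**
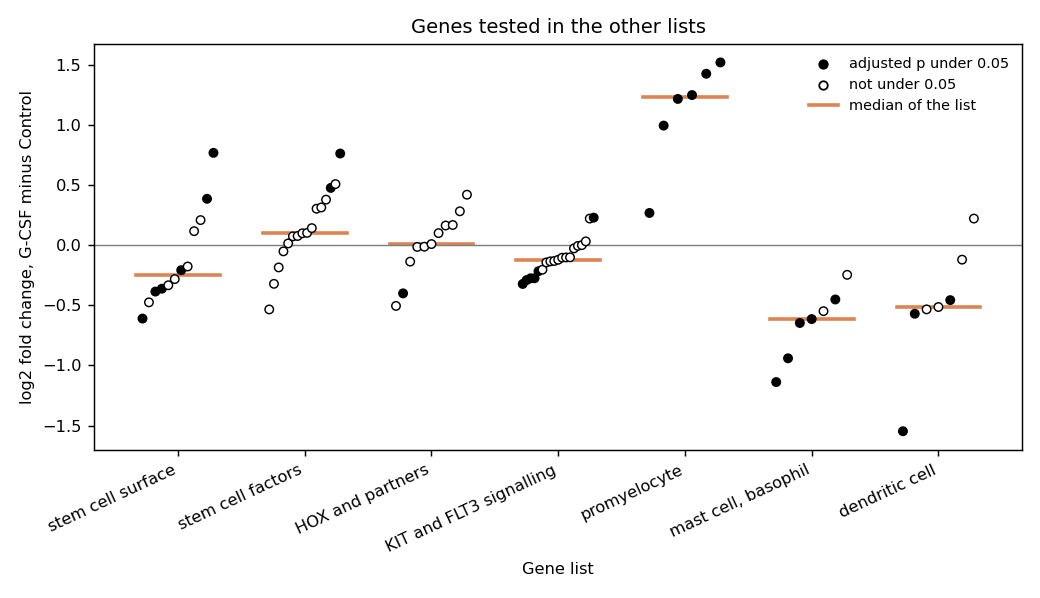
log2 fold change (G-CSF minus Control) of each tested gene in 4 lists of progenitor and signalling genes and 3 of lineage markers. Filled points mark an adjusted p under 0.05, and a bar marks the median of the list. The first 4 lists have medians from -0.24 to 0.10. The median is 1.23 for the promyelocyte genes, -0.61 for the mast cell and basophil genes and -0.51 for the dendritic cell genes.

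Cells of other types also express some of these genes, and their markers moved too. Beside the counts of these marker lists, 12.6% of all genes tested passed as higher and 11.5% as lower with G-CSF. The list of promyelocyte and granulocyte-monocyte progenitor genes rose in 6 of 6 genes, and its summed level was 1535 to 1658 FPKM (Control) and 2967 to 3064 FPKM (G-CSF). *Calr*, the highest gene of the list, held 693 to 697 FPKM of this in Control and 818 to 856 FPKM with G-CSF. Its log2 fold change was only 0.27 (adjusted p = 0.0126). *Mpo* was at 133 to 148 FPKM (Control) and 399 to 404 FPKM (G-CSF), or 1.52 on the log2 scale (SE 0.0597, adjusted p = 0.000122) beside that of 1.30 for *Myb*. All 10 proliferation genes rose (median 0.39, summed level 786 and 795 FPKM against 1010 and 980 FPKM). The part of such cells in the change of *Myb* was not tested.

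Of 12 mast cell and basophil genes, 7 were tested and 5 fell, and all 7 lay below 0 (median -0.61). The summed level was 150 and 163 FPKM (Control) and 91.1 and 103 FPKM (G-CSF). *Mcpt8*, a basophil protease gene, was at 57.4 and 56.8 FPKM (Control) and 34.9 and 39.8 FPKM (G-CSF), or -0.61 on the log2 scale (SE 0.069, adjusted p = 0.00438) beside -0.70 for *Kit*. The basophil protease gene *Prss34* fell by 0.65 on the log2 scale, *Cpa3* by 0.45 and *Hdc* by 1.14 (adjusted p = 0.00549, 0.00793 and 0.0104). Of the mast cell protease genes, *Cpa3* stood at 12.0 to 17.2 FPKM over the 4 libraries, and others were at or near 0. *Tpsab1* and *Mcpt4* were listed at 0 in every library, as was the receptor gene *Mrgprb2*. *Cma1* and *Tpsb2* stood above 0 in Control replicate 2 only. The part of basophils or mast cells in the change of *Kit* was not tested.

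Dendritic cell genes were compared with *Flt3* in the same way. Of 9 genes, 7 were tested and 3 fell, and 6 lay below 0 (median -0.51), *Flt3l*, which stands in this list too, being the other. They had a summed level of 191 and 155 FPKM (Control) and 140 and 106 FPKM (G-CSF). In both groups this sum was higher in replicate 1 than in replicate 2, as was *Flt3*. The sum was mostly *Itgax* (47.2 to 78.6 FPKM) and *Ccr7* (38.3 to 75.4 FPKM). *Xcr1* in both groups, *Clec9a* in Control and *Batf3* with G-CSF were higher in replicate 2. *Zbtb46*, which encodes a defining factor of classical dendritic cells, stood at 4.78 and 2.94 FPKM (Control) and 3.37 and 1.99 FPKM (G-CSF) (log2 fold change -0.51, adjusted p = 0.252). *Batf3* fell by 0.57 on the log2 scale, *Cd209a* by 1.55 and *Itgax* by 0.46 (adjusted p = 0.0121, 0.0158 and 0.0397), and *Ccr7* did not pass (-0.53, adjusted p = 0.0745). By flow cytometry of such cultures, the study found no effect of G-CSF on the percentages of MDSCs, dendritic cells or macrophages. Within the MDSCs it did report a shift with G-CSF, to a higher proportion of monocytic and a lower proportion of polymorphonuclear MDSCs. The part of dendritic cells in the values of *Flt3* was not tested.

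**Figure D4:**
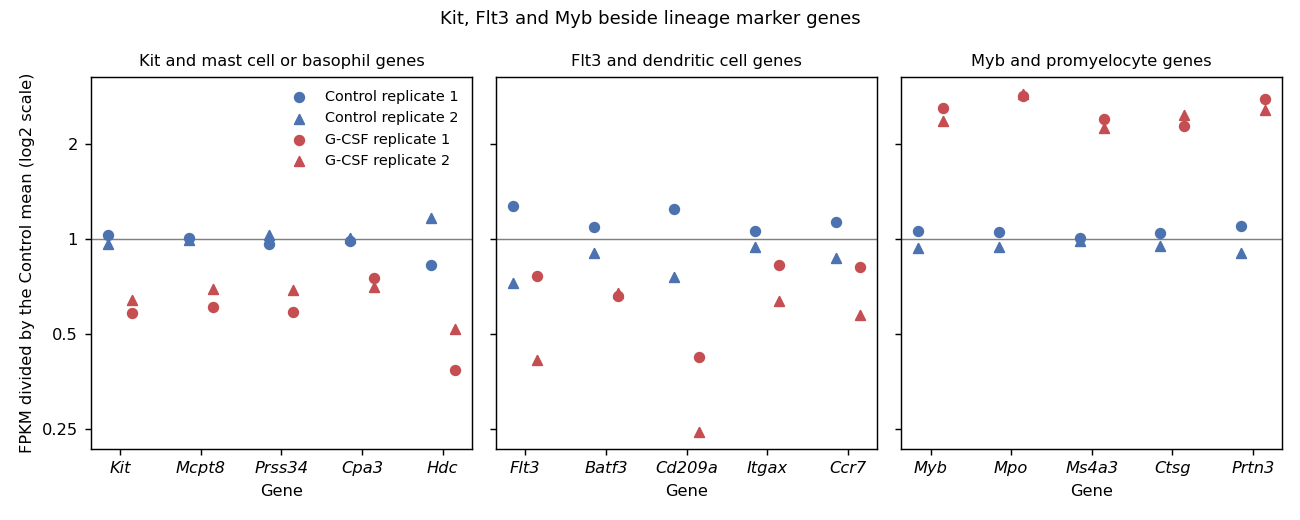
FPKM of *Kit*, *Flt3* and *Myb*, each beside the 4 genes with the smallest p in a lineage marker list, divided by the mean of the Control libraries (log2 scale), with 1 point per library. *Kit* falls by a like factor to *Mcpt8* and *Prss34*, by more than *Cpa3* and by less than *Hdc*. *Flt3* differs between replicates as *Cd209a* does, and *Myb* rises with *Mpo* and *Prtn3*.

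Other lineages that share progenitor genes were faint or did not move together. Of 8 megakaryocyte genes, all were tested, and 1, *Ppbp*, fell (summed level 61.1 and 63.8 FPKM for Control, 55.9 and 58.0 FPKM for G-CSF). Of 9 erythroid genes analysed, 2 were tested and *Tfrc*, which dividing cells also use, rose. The summed level of the erythroid list was 49.5 and 51.1 FPKM (Control) and 73.1 and 71.9 FPKM (G-CSF), nearly all of it *Tfrc*. Endothelial cells also express *Erg* and *Cd34*, and of 7 of their genes 2 were tested, *Pecam1*, which leukocytes express too and which rose, and *Kdr*, at 0.403 to 0.854 FPKM, which did not pass. *Cdh5* was at most 0.079 FPKM, *Emcn* at most 0.058 FPKM and *Ramp2* was listed at 0, and the summed level of 20.2 to 21.1 FPKM (Control) and 24.6 to 25.5 FPKM (G-CSF) was mostly *Pecam1*. The lists for B cells (2 of 9 tested, 1 fell, at most 5.50 FPKM in sum), T and NK cells (3 of 6 tested, 1 fell, at most 3.27 FPKM) and stromal cells (2 of 6 tested, 1 fell, at most 2.17 FPKM) were low in every library. In the myeloid marker list, 5 of 9 genes fell and all 9 lay below 0 (median -0.35), and its summed level was 69955 to 78957 FPKM (Control) and 55148 to 55609 FPKM (G-CSF). Most of this sum was *S100a8* and *S100a9*. In the limma test *S100a8* did not pass (adjusted p = 0.0856), whereas *S100a9* fell (log2 fold change -0.53, adjusted p = 0.0277).

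Among the genes nearest to *Myb* in pattern were *Lppr3* and *Plac8*, measured by the Euclidean distance between log2 values centred over the 4 libraries (0.0718 and 0.112). *Plac8* was the higher of these, at 195 and 183 FPKM (Control) and 490 and 479 FPKM (G-CSF) (log2 fold change 1.36, SE 0.0487, adjusted p = 0.000122). The genes nearest to *Lmo2*, the highest of the 9, were *Hnrnpa1*, *Exoc3l* and *Dgat2* (distances 0.0127, 0.0156 and 0.0179). *Exoc3l* itself did not pass the test (adjusted p = 0.354), and the likeness, over 4 libraries, is a description.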

How the data were processed

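RNA was measured by stranded, poly(A)-selected RNA-seq in 75-base single-end mode, in 2 Control and 2 G-CSF libraries of *in vitro* MDSCs. The authors deposited 1 table of FPKM values per library. The unit was inferred from the values, which are not whole numbers, and from Cufflinks 2.2.1 among the tools of the submitters' processing notes, which also name TopHat2 2.0.13, Bowtie2 2.2.3, SAMtools 0.1.19 and genome build mm10. The annotation is not given in the sources used here. FPKM already include the authors' scaling to depth and length. Reads were therefore estimated from the steps of low FPKM values of single transcripts of 600 to 4000 bases (GENCODE M21, GRCm38, length less 210 bases), where 68.1% of 4341 values of up to 8 reads lay within 0.05 of a whole read, against 10% by chance.

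Genes entered the test if 2 or more libraries held 10 estimated reads and the 4 together 15. The main test was limma 3.58.1 (R 4.3.3) on log2(FPKM + 0.1) with a variance trend, two-sided, without a replicate block and with Benjamini-Hochberg adjustment over all genes tested. Fold changes on this scale understate the changes of low genes. A gene rose or fell at an adjusted p under 0.05. Left out were 328 genes without a transcript length and 1309 small RNA genes or genes with transcripts of 200 bases or fewer.

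The 9 genes and all lists were chosen with earlier results of these data known. The lists cover progenitor surface genes, transcription factors, HOX genes and partners, KIT and FLT3 signalling, and markers of myeloid cells, promyelocytes, mast cells and basophils, dendritic cells, megakaryocytes, erythroid, B, T and NK, endothelial, stromal, liver and proliferating cells. From each of the 4 progenitor lists, and for the lineage lists set beside a gene, the 4 tested genes with the smallest p were named, with defining or untested genes (such as *Zbtb46*, *Fli1*, *Ldb1* and *Mrgprb2*) named in addition after their values were seen. Alternatives were other scaling, filters and pseudocounts, a replicate block, no variance trend, voom, and each library left out. The fit was checked on simulated data. Promoter windows are RefSeq's (250 bases before each start), and the count of CG was chosen after the data were seen. A few genes that the naming rule selects are not reported here.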

Additional observations from a re-analysis of the deposited data

How the results depend on the processing

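All 9 progenitor genes kept the direction of their change under every alternative in which they were tested (13 alternatives, or 12 for *Flt3* and *Hoxa9*, which a filter of 1 FPKM in 2 libraries removed). *Myb* passed in 13 of 13 (adjusted p 2.91e-05 to 0.0464), *Kit* in 12 of 13 and *Lmo2* in 11 of 13 (adjusted p up to 0.0512 and 0.078). *Cd34*, *Erg*, *Sox4*, *Meis1* and *Flt3* passed in none. Over all genes, 1511 passed as higher and 1373 as lower with G-CSF, and 64 and 108 also exceeded a fold change of 2. Without a filter on low values 882 and 744 passed, with 16234 genes in the adjustment, and 1 of the progenitor transcription factors and 2 of the signalling genes. A pseudocount of 1 FPKM left 25 and 32 genes past a fold change of 2. Without the variance trend 46 genes passed as higher and 66 as lower (29 and 35 past a fold change of 2), of the 9 progenitor genes 1 higher and 0 lower, and 1 surface gene, while 0 genes of the transcription factor, HOX and signalling lists passed in limma (7, 2 and 7 had an unadjusted p under 0.05, 2 progenitor genes lower). With voom, 2 progenitor genes passed both thresholds, *Hoxa9* being the second, with 5 transcription factors and 3 genes of the HOX list. The cause of these differences was not tested.

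Same-numbered libraries deviated together from their group means (r = 0.262 across 11958 genes, which are not independent), and the second principal component (22.2% of the variance) set the numbers apart. The labels do not say that a number marks a shared mouse or day. With the replicate number as a block, 4011 genes passed in place of 2884. In that fit 2 progenitor genes passed both thresholds (*Myb* and *Hoxa9*, adjusted p = 0.00702) and 3 genes of the HOX list passed.

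When single libraries are left out, the lone library of a group is assumed to vary like the others. Then 753 to 927 genes passed as higher, 720 to 1015 as lower, 42 to 74 and 81 to 126 exceeded a fold change of 2, 1 to 3 progenitor genes passed as higher and 1 as lower, 1 to 2 passed both thresholds, and 4 to 5 surface genes, 1 to 3 transcription factors, 0 to 1 HOX list genes and 1 to 3 signalling genes passed (0 HOX list genes without Control replicate 2 or G-CSF replicate 2, with 1 and 3 at an unadjusted p under 0.05). The order of the 9 genes within a library cannot differ in TPM, which divides all its FPKM by 1 constant. *Flt3* and *Hoxa9* rest on 17 to 45 and 5 to 36 estimated reads, and their SE fell from 0.353 to 0.227 and from 0.443 to 0.265 with the block.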
